A study of Mus musculus with 6 samples.

Results

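The genes described here are 6 components of the WNT signalling pathway in injured mouse kidney, namely the receptor gene Lgr4, the co-receptor genes Lrp5 and Lrp6, the ligand gene Wnt4, and the inhibitor genes Nkd1 and Sfrp1. They were taken by symbol from the deposited table, and all 6 were found among its 7340 genes. RNA was sequenced from 6 samples of wild-type (WT) mice that the labels name as kidney, although the design text of the series speaks of tumors. The treated group of 3 had ischaemia-reperfusion injury (IRI), a stop and return of blood flow, and MK-8617, a prolyl hydroxylase inhibitor that keeps hypoxia-inducible factor (HIF) from being degraded. The other group of 3 had IRI alone. The titles name MK8617 for all 3 treated samples, while the treatment entries of replicates 2 and 3 read MK8618 and MK8619, and the titles were followed. The labels give no age, sex, dose, time after injury or vehicle, the column names carry a 1d tag, and no uninjured kidney was analysed here, so each difference is relative to injury alone. Nothing in the labels says that replicates were separate animals, so p-values cover the spread among these 6 samples only, and it may be technical.

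WNT ligands bind a Frizzled receptor together with LRP5 or LRP6 at the cell surface, which stops the destruction of β-catenin and lets it act with TCF/LEF factors on target genes. LGR4 binds R-spondins, and this complex withdraws the ubiquitin ligases ZNRF3 and RNF43 that would otherwise clear Frizzled and LRP6 from the membrane. SFRP1 is secreted and binds WNT proteins through a Frizzled-like domain, and NKD1 binds Dishevelled inside the cell. In the mouse kidney, Wnt4 is needed for the conversion of mesenchyme into the epithelium of the nephron, and WNT genes are active again after tubular injury.

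The libraries held 16835541 to 17577794 counted reads with MK-8617 and 18620621 to 19508497 with IRI alone, and the listed genes took up 56.7% to 57.4% of them with MK-8617 and 51.7% to 53.0% with IRI alone. Every gene in the table has an unadjusted p below 0.05 in the authors' deposited test, so a gene outside it was not tested here and has no direction. In the limma test on log2(normalised count + 1), where a normalised count is the read count divided by the library's size factor, 6961 genes were tested. At an adjusted p below 0.05 the test called 74.3% of them, with 35.7% higher and 38.7% lower after MK-8617. The 2482 genes called higher numbered 1488 when MK-8617 replicate 1 was left out and 1618 when replicate 3 was. In 92.5% of the tested genes the groups were fully apart, with the MK-8617 libraries above in 44.8% and below in 47.6%. Of all calls 48.0% were higher with MK-8617, and 55.2% with TMM scaling in edgeR, 57.2% with DESeq2, 56.2% with limma-voom and 56.0% with a trend on gene length removed. All 6 WNT genes passed the filter on low values and were called, and their groups did not overlap. Because they were chosen with these calls known, nothing is read from that count. Kidney epithelial markers were present in every library, with a summed level of the 5 listed proximal tubule markers of 1448 to 1629 FPKM (reads per kilobase of exonic sequence, scaled to library depth) with MK-8617 and 403 to 999 FPKM with IRI alone, lowest in IRI replicate 3.

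Bases upstream of a start site were at hand for 3 of the 6 genes (RefSeq, GRCm38.p6), 1 that was higher and 2 that were lower with MK-8617. They are shown because the inhibitor acts on HIF, whose core binding letters are ACGTG and GCGTG. Capitals mark every match to ACGTG or GCGTG on either strand, so that CACGT and CACGC are the same letters read on the other strand. The windows lie at chr2:109917397-109917646 for Lgr4, chr4:137277385-137277488 for Wnt4 and chr8:88527383-88527632 for Nkd1, all on the plus strand. The Wnt4 window stops at the first annotated exon base, and the Nkd1 window lies inside the gene, before the start of a shorter transcript.
Lgr4: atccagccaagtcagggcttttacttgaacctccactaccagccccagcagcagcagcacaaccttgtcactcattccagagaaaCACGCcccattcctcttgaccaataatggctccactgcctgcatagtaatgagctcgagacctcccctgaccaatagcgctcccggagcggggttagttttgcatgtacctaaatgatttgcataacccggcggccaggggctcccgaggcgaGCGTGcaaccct
Wnt4: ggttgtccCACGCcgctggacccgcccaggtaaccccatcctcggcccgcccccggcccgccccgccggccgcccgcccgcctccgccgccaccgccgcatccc
Nkd1: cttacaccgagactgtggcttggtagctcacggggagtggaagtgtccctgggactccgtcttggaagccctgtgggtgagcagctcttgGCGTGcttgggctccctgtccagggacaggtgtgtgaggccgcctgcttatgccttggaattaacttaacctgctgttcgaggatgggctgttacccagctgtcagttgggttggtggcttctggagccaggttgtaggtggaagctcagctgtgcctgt
GCGTG occurred 2 times before Lgr4, 1 time before Wnt4 and 1 time before Nkd1, and ACGTG did not occur in these windows. Of 32851 such windows of 250 bases before annotated start sites, 28.2% held GCGTG and 16.6% held ACGTG on either strand. The TCF/LEF core CTTTGA was in none of the 3 windows and in 13.8% of all windows. Either HIF core was in 38.6% of all windows. In the 3 windows shown, HIF letters stood before 1 gene that was higher with MK-8617 and 2 that were lower. A match is only a match of letters, and HIF binding was not tested.

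The 3 receptor genes rose with MK-8617, Lgr4 most, then Lrp5, then Lrp6. Lgr4 (ENSMUSG00000050199, GRCm38 chromosome 2, 109917647 to 110014257, plus strand) had 3259, 3108 and 3019.9 normalised counts in MK-8617 replicates 1, 2 and 3, against 1581, 1237 and 1374 in IRI replicates 1, 2 and 3. Every MK-8617 library lay far above every IRI library, and the 3 MK-8617 libraries were closer to each other than the 3 IRI libraries. The means were 3129 ± 121 with MK-8617 and 1397 ± 173 in the IRI group (SD, n = 3 each), a ratio of 2.24 and a log2 fold change of 1.17 ± 0.11 (SE, 95% interval 0.92 to 1.42) with a limma adjusted p of 0.000235. Of the tested genes 90.8% had a lower log2 fold change. Between 1358 and 3181 reads were counted per library, so counting error was 1.83% of the mean with MK-8617 and 2.59% with IRI alone, below the spread between replicates of 3.87% with MK-8617 and 12.4% with IRI alone. In whole kidney, a change in the number of cells of a type and a change in RNA per cell cannot be told apart, here and for each gene below.

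Lrp5 (ENSMUSG00000024913, GRCm38 chromosome 19, 3584828 to 3686564, minus strand) encodes the co-receptor best known for its role in bone mass. It had 1251, 1244 and 1623 normalised counts in MK-8617 replicates 1, 2 and 3, against 856, 716 and 851 in IRI replicates 1, 2 and 3. MK-8617 replicate 3 stood above the other two and IRI replicate 2 below, and the groups did not overlap. The log2 fold change was 0.76 ± 0.13 (95% interval 0.46 to 1.06), with a limma adjusted p of 0.00353. Lrp6 (ENSMUSG00000030201, GRCm38 chromosome 6, 134446476 to 134566965, minus strand) encodes the paralogous co-receptor, whose loss in the mouse is lethal around birth. It had 1999.9, 1587 and 1930.0 normalised counts in MK-8617 replicates 1, 2 and 3, against 1428, 1408 and 1347 in IRI replicates 1, 2 and 3. The IRI libraries were close together, and MK-8617 replicate 2 was much nearer to them than the other two treated libraries. The log2 fold change was 0.39 ± 0.11 (95% interval 0.14 to 0.64), with a limma adjusted p of 0.0284.

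The Lrp6 call was the less stable of the receptor calls. It was lost without IRI replicate 1 (log2 fold change 0.41) or 2 (0.40), without MK-8617 replicate 1 (0.33) or 3 (0.35), and on log2(FPKM + 0.1) (0.37). Lrp6 has the longest exonic sequence of the 6 genes, 13672 bases against 5884 for Lgr4 and 9738 for Lrp5, and the log2 fold changes of this table increased with gene length. The curve fitted to log2 fold change against length over the tested genes stood at 0.16 at the length of Lrp6, 0.09 at that of Lrp5 and 0 at that of Lgr4. With that trend removed, Lrp6 was at 0.23 and no longer past the threshold (adjusted p = 0.197), while Lrp5 at 0.67 and Lgr4 at 1.17 were. None of the exonic bases of the 6 genes lies in an exon of another annotated gene.

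**Figure D1:**
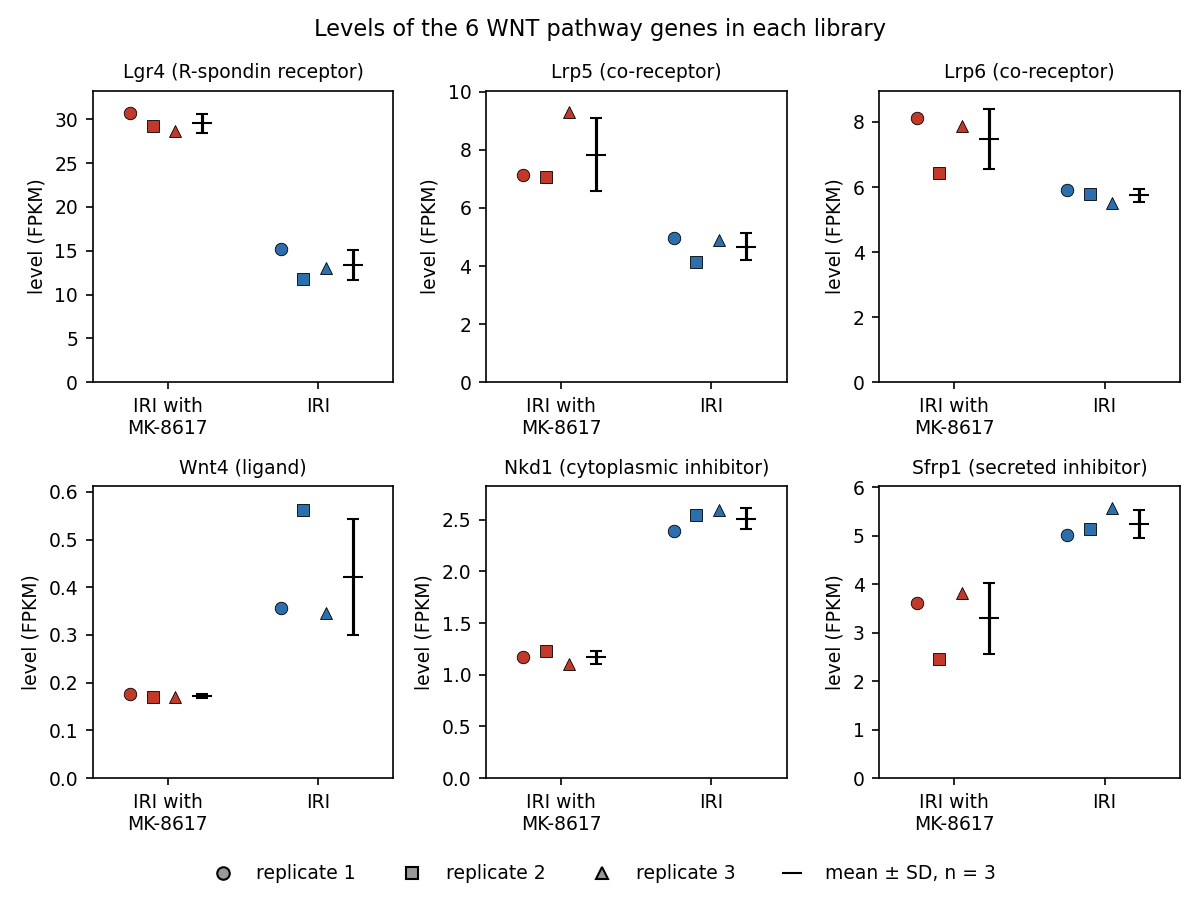
Level of each gene in FPKM (linear axes from 0) in the 3 MK-8617 and the 3 IRI libraries, with 1 symbol per replicate and the mean ± SD beside the points. The receptor genes of the upper row lie higher in every MK-8617 library than in any IRI library, Lgr4 at 28.7 to 30.8 against 11.8 to 15.2 FPKM, and the ligand and inhibitor genes of the lower row lie lower.

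Ratios between the receptor genes within a library do not depend on the library's scaling. The FPKM of Lgr4 was 3.79, 4.55 and 3.64 times that of Lrp6 in MK-8617 replicates 1, 2 and 3, against 2.57, 2.04 and 2.37 times in IRI replicates 1, 2 and 3. The groups did not overlap, and the log2 ratio differed by 0.78 ± 0.14 (SE). Lgr4 was at 4.31, 4.13 and 3.08 times the FPKM of Lrp5 with MK-8617, against 3.06, 2.86 and 2.67 times with IRI alone, and here MK-8617 replicate 3 and IRI replicate 1 were almost level. That log2 ratio differed by 0.41 ± 0.16. Lrp5 was at 0.878, 1.10 and 1.18 times the FPKM of Lrp6 with MK-8617, against 0.841, 0.714 and 0.887 times with IRI alone, a log2 difference of 0.37 ± 0.16 with overlapping groups. Exact two-sided permutation tests gave p = 0.1 for both ratios with Lgr4 and p = 0.2 for Lrp5 over Lrp6. With 3 libraries against 3, 0.1 is the smallest p such a test can give, and adjusted over the 6 ratios tested all 3 came to 0.3.

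**Figure D2:**
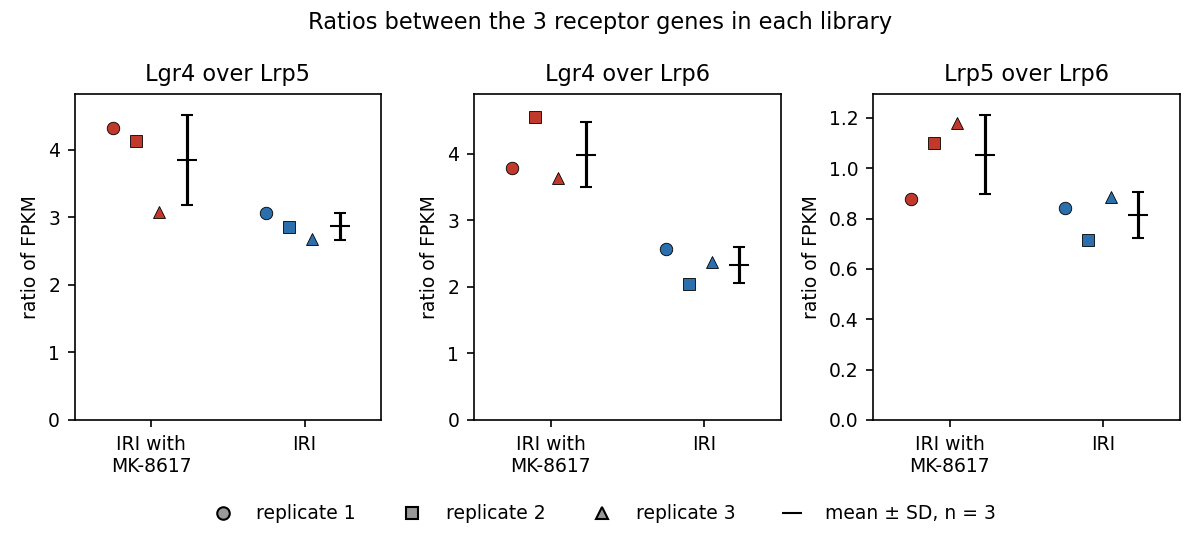
Ratio of FPKM between pairs of receptor genes in each library (linear axes from 0), with 1 symbol per replicate and the mean ± SD beside the points. The ratio of Lgr4 to Lrp6 is 3.64 to 4.55 in the MK-8617 libraries and 2.04 to 2.57 in the IRI libraries, while the ratios of Lrp5 to Lrp6 overlap.

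The ligand and inhibitor genes fell with MK-8617. Nkd1 (ENSMUSG00000031661, GRCm38 chromosome 8, 88521354 to 88594884, plus strand) encodes a Dishevelled-binding inhibitor whose gene is itself switched on by β-catenin. It had 96.3, 101 and 90.4 normalised counts in MK-8617 replicates 1, 2 and 3, against 193, 206 and 211 in IRI replicates 1, 2 and 3. Each group was tight and the groups lay far apart, with means of 96.0 ± 5.51 with MK-8617 and 203 ± 9.18 in the IRI group (SD, n = 3 each). The log2 fold change was -1.07 ± 0.17 (95% interval -1.45 to -0.70), with a limma adjusted p of 0.00212. Its spread between replicates was 5.74% of the mean with MK-8617 and 4.52% with IRI alone, below the counting error of 10.5% with MK-8617 and 6.79% with IRI alone, and counting error is thus the larger part of its uncertainty. The call of Nkd1, like those of Lgr4 and Lrp5, held in all 18 alternative settings, where its log2 fold change was -1.11 to -0.99.

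Sfrp1 (ENSMUSG00000031548, GRCm38 chromosome 8, 23411502 to 23449632, plus strand) had 285, 194 and 299 normalised counts in MK-8617 replicates 1, 2 and 3, against 388, 399 and 435 in IRI replicates 1, 2 and 3. MK-8617 replicate 2 was the low library, and the IRI libraries were all above the treated ones. The log2 fold change was -0.67 ± 0.18 (95% interval -1.08 to -0.27), with a limma adjusted p of 0.0215. Without MK-8617 replicate 2 it was -0.48 and still past the threshold, and without IRI replicate 1 it was -0.71 with an adjusted p of 0.0506.

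Wnt4 (ENSMUSG00000036856, GRCm38 chromosome 4, 137277489 to 137299726, plus strand) was the least abundant of the 6 genes. It rested on 13, 12 and 12 reads in MK-8617 replicates 1, 2 and 3, against 28, 46 and 27 reads in IRI replicates 1, 2 and 3. The exact 95% Poisson interval, which covers counting error only, was 6.92 to 22.2 reads for the 13 reads of MK-8617 replicate 1 and 17.8 to 39.3 reads for the 27 reads of IRI replicate 3, and these intervals overlap. The normalised counts were 13.3, 12.8 and 12.8 with MK-8617, against 26.5, 41.9 and 25.9 with IRI alone, and IRI replicate 2 stood above the other two. The log2 fold change was -1.18 ± 0.35 (95% interval -1.97 to -0.39), with a limma adjusted p of 0.0347. The SD of the MK-8617 libraries, 2.39% of their mean, is far below the counting error of 28.5% and understates the uncertainty. The call was lost without IRI replicate 1 (-1.28) or 2 (-0.96), and without any 1 MK-8617 replicate (-1.20 to -1.17). It was also lost with the replicate number as a block (-1.18, limma adjusted p = 0.0532). DESeq2 on the reads of the 6961 tested genes alone did not call Wnt4 either (-1.19, adjusted p = 0.0846). In the authors' deposited test, adjusted over 18811 genes, Wnt4 was at -1.28 with an adjusted p of 0.0415.

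Ratios among the lower genes showed no difference that these libraries could resolve. The log2 ratio of Wnt4 to Nkd1 differed by -0.16 ± 0.23 between IRI with MK-8617 and IRI alone, that of Wnt4 to Sfrp1 by -0.57 ± 0.31 and that of Nkd1 to Sfrp1 by -0.41 ± 0.24, with overlapping groups in each. The exact permutation p-values were 0.9, 0.2 and 0.4 (0.9, 0.3 and 0.48 adjusted over the 6 ratios). Without IRI replicate 2 the Wnt4 to Nkd1 difference was 0.06.

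**Figure D3:**
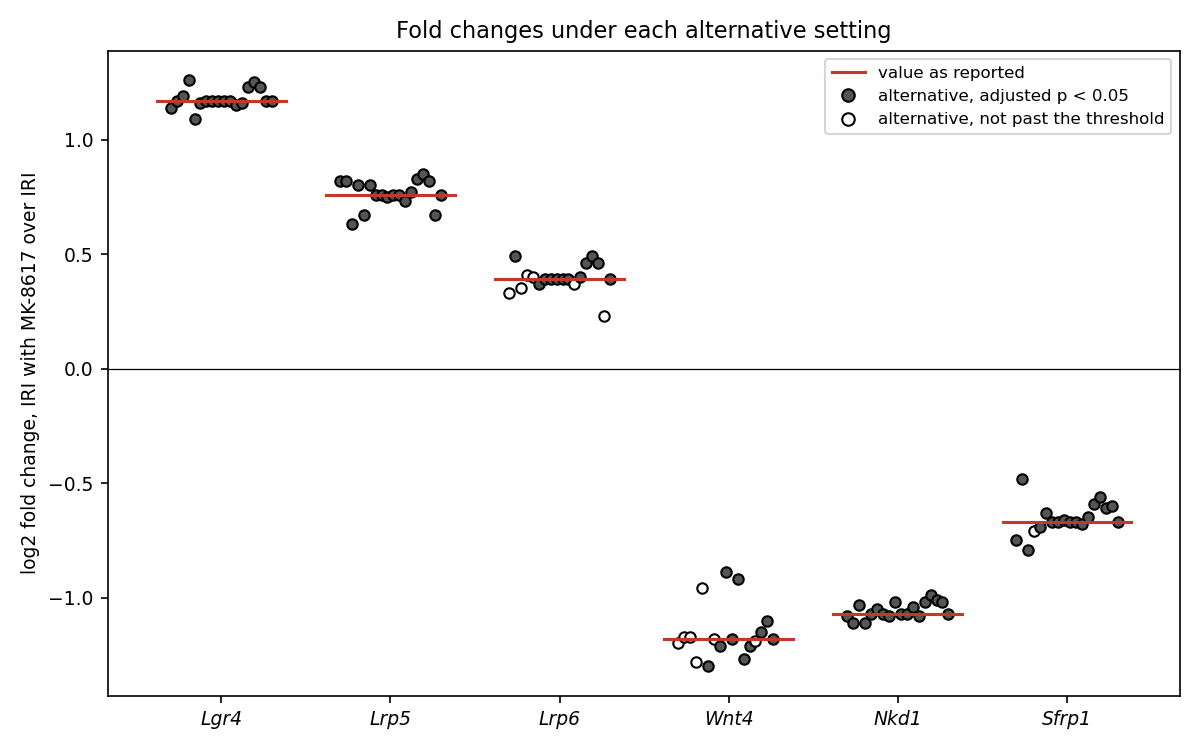
Log2 fold change of each gene, IRI with MK-8617 over IRI (y axis), as reported (red line) and under each alternative setting (points, filled where the adjusted p stayed below 0.05). No point crosses 0 for any gene, and open points occur for Lrp6 (6 of 18), Wnt4 (7 of 17) and Sfrp1 (1 of 18).

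Levels of different genes can be compared only per length. With MK-8617 the order was Lgr4 at 29.6 ± 1.08 FPKM, Lrp5 at 7.84 ± 1.27, Lrp6 at 7.48 ± 0.918, Sfrp1 at 3.30 ± 0.733, Nkd1 at 1.17 ± 0.0620 and Wnt4 at 0.172 ± 0.00396 FPKM (SD, n = 3). With IRI alone it was Lgr4 at 13.4 ± 1.69 FPKM, Lrp6 at 5.74 ± 0.198, Sfrp1 at 5.24 ± 0.296, Lrp5 at 4.67 ± 0.459, Nkd1 at 2.51 ± 0.103 and Wnt4 at 0.422 ± 0.122 FPKM (SD, n = 3). The ranges of neighbouring genes overlapped for Lrp5 and Lrp6 with MK-8617 and for Lrp6 and Sfrp1 with IRI alone, and every other pair of neighbours was separated in all 3 libraries. Sfrp1 thus lay below both co-receptors in every MK-8617 library, while with IRI alone it overlapped Lrp6 and lay above Lrp5. Among the 7340 listed genes, Lgr4 exceeded 85.7% in mean FPKM with MK-8617 and 70.0% with IRI alone, and Wnt4 exceeded 5.8% with MK-8617 and 8.8% with IRI alone.

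The rest of the pathway was read from 8 lists by role, of 115 genes in all, which were chosen with earlier results of these data known. Of these genes 42 were listed and tested, 23 rose, 11 fell and 8 were not past the threshold. Their median log2 fold change was 0.45, against -0.31 over all tested genes, and 54.8% of them rose and 26.2% fell, against 35.7% and 38.7% of all tested genes. The 42 include the 6 genes described above, and the choice was not blind to the results, so nothing is read from this contrast. The median over all tested genes also depended on the setting, and was -0.11 with the length trend removed. Of the 42 genes, the number that rose was 13 without MK-8617 replicate 1, 15 without MK-8617 replicate 3 and 15 without IRI replicate 1. Against 11 in all libraries, falls among the 42 numbered 7 without MK-8617 replicate 3, 6 without IRI replicate 1 and 7 when genes under 5 CPM were left out. The direction was kept in every alternative setting for all 42 genes, those that rescale the libraries included. This was largely fixed beforehand, because the authors' test that selected the listed genes used the same libraries. For 40 of the 42, as for 92.5% of all tested genes, every MK-8617 library lay on the same side of every IRI library. Leaving out 1 library could not reverse those. The share of all tested genes that kept their direction was not counted, so nothing is read from this. Among the 36 tested genes other than the 6 described above, 20 rose and 8 fell, and 10 calls of a rise and 5 of a fall held in every alternative setting that could be run. The calls of a rise that held were those of Bcl9l, Crebbp, Ep300, Csnk1a1, Fzd8, Tpbg, Sp5, Myc, Sox9 and Jun. The calls of a fall that held were those of Sostdc1, Dact3, Ptk7, Ccnd1 and Cd44. How many of all tested genes kept their call throughout was not counted. Whether these calls held more often than those of other genes is therefore not known.

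Of 16 receptor and co-receptor genes 7 were tested, and 4 rose, Lrp5 and Lrp6 among them, and 1 fell, with a median log2 fold change of 0.52. Without MK-8617 replicate 1, or without IRI replicate 1, 2 rose. On log2(FPKM + 0.1), or with the length trend removed, 2 rose as well, and Lrp6 and Fzd3 lost their calls in both. Fzd8, a Frizzled receptor gene, had 508, 411 and 523 normalised counts with MK-8617, against 284, 317 and 266 with IRI alone, a log2 fold change of 0.73 ± 0.14 (limma adjusted p = 0.00559). Fzd3 rose by 0.75 ± 0.20 on the log2 scale (adjusted p = 0.021), a call lost in 5 of 18 alternatives. Fzd4 and Fzd5 were at 0.29 and 0.52 and not past the threshold. Ptk7, a co-receptor of the planar polarity branch, had 384, 306 and 396 normalised counts with MK-8617, against 497, 537 and 563 with IRI alone, and fell by 0.56 on the log2 scale (SE 0.13, adjusted p = 0.0141). Lgr4 was the 1 listed gene among 9 R-spondins, their receptors and ligases, so Lgr5, Lgr6, Znrf3 and Rnf43 were not tested.

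Among 17 secreted and surface inhibitors 6 were tested, and 1 rose and 4 fell, with a median of -0.93. Leaving out IRI replicate 1 left 1 fall, and leaving out IRI replicate 2, or replicate 2 or 3 of the MK-8617 group, left 2. The falls also numbered 2 with edgeR and TMM scaling, with DESeq2, and among genes of at least 5 CPM, where 0 rose because Tpbg was not tested. Sostdc1, which encodes a secreted antagonist of BMP and WNT signalling made in kidney tubules, had 197, 240.1 and 236 normalised counts with MK-8617, against 532, 386 and 797 with IRI alone. The groups lay apart although the IRI libraries were spread widely, and the log2 fold change was -1.29 ± 0.24 (limma adjusted p = 0.00452). Sfrp4, a relative of Sfrp1, had 11.3, 3.20 and 2.13 normalised counts with MK-8617, against 17.0, 25.5 and 16.3 with IRI alone (-1.89 ± 0.58, adjusted p = 0.0388), a call lost in 6 of 17 alternatives. Apcdd1, a membrane inhibitor, was at -0.95 ± 0.30 (adjusted p = 0.044), a call lost in 10 of 17 alternatives, and Wif1 at -0.90 was not past the threshold. The member that rose was Tpbg, a surface glycoprotein gene, with 85.0, 91.8 and 136 normalised counts with MK-8617, against 41.6, 46.5 and 37.4 with IRI alone (1.27 ± 0.26, adjusted p = 0.00763). Dickkopf genes, which encode LRP5 and LRP6 antagonists, were not listed.

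Of 19 ligand genes 3 were tested and went both ways. Wnt9a had 158, 130.2 and 159 normalised counts with MK-8617, against 54.9, 55.6 and 101 with IRI alone, and rose by 1.13 ± 0.27 on the log2 scale (limma adjusted p = 0.0147), a call lost in 3 of 18 alternatives. Wnt5b, a ligand of the β-catenin-independent branch, had 14.3, 24.5 and 21.3 normalised counts with MK-8617, against 43.5, 82.0 and 27.8 with IRI alone, and was not past the threshold (-1.20 ± 0.43, adjusted p = 0.0693). Per length, Wnt9a was at 2.49 ± 0.283 FPKM with MK-8617 and 1.19 ± 0.438 FPKM in the IRI group (SD, n = 3 each), above Wnt4 in every library of either group. Wnt5b was at 0.420 ± 0.109 FPKM with MK-8617 and 1.08 ± 0.592 FPKM with IRI alone, so its range overlapped that of Wnt9a with IRI alone and lay below it with MK-8617.

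Inside the cell, 7 of 24 transducer and inhibitor genes were tested, and 4 rose and 2 fell, with a median of 0.35. Leaving out MK-8617 replicate 1 left 1 rise, and leaving out replicate 2 or 3 of that group, or replicate 1 or 2 of the IRI group, left 2. Those that rose were Dvl3, a Dishevelled gene (0.45), Csnk1a1, the kinase that primes β-catenin for degradation (0.41), Tnks, a tankyrase that destabilises Axin (0.35), and Ctnnbip1, which encodes an inhibitor of β-catenin and TCF binding (0.54). Dvl3, Tnks and Ctnnbip1 lost their calls in 4, 7 and 2 of 18 alternatives. Besides Nkd1, the gene that fell was Dact3, another Dishevelled antagonist, with 74.8, 69.4 and 85.1 normalised counts with MK-8617, against 135, 178 and 215 with IRI alone (-1.17 ± 0.22, limma adjusted p = 0.0053). Its relative Dact1 was at -0.77 and not past the threshold.

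Of 15 nuclear effector genes 9 were tested, and 6 rose and 0 fell in the limma test, with a median of 0.48. Without MK-8617 replicate 1, 3 rose. Pygo1, an adaptor gene with 5 to 28 reads a library, was the 1 gene of the 9 that was lower at an unadjusted p below 0.05 (-1.20, limma adjusted p = 0.0737). Bcl9l, which encodes an adaptor that links β-catenin to PYGO proteins, had 1459, 1553 and 1589 normalised counts with MK-8617, against 749, 692 and 746 with IRI alone (1.07 ± 0.09, limma adjusted p = 0.000154). The coactivator acetyltransferase genes Crebbp and Ep300 rose by 0.80 ± 0.12 and 0.66 ± 0.09 on the log2 scale (limma adjusted p = 0.00159 and 0.00155), and both also serve HIF and many other factors. Bcl9, the corepressor gene Tle4 and the Polycomb gene Cbx7 rose by 0.44, 0.46 and 0.48, calls lost in 9, 5 and 2 of 18 alternatives. Tcf7l1 (0.44) and Tle1 (0.56) were not past the threshold, and no other TCF/LEF gene was listed.

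Of 20 β-catenin target genes 10 were tested, and 6 rose and 4 fell, with a median of 0.80. Sp5, a transcription factor gene that β-catenin induces, had 408, 476 and 435 normalised counts with MK-8617, against 224, 209 and 118 with IRI alone (1.31 ± 0.23, limma adjusted p = 0.00389). Ccnd1, which encodes cyclin D1, had 520.5, 747 and 1018 normalised counts with MK-8617, against 2569, 2631 and 2586 with IRI alone (-1.82 ± 0.20, limma adjusted p = 0.000495). Myc and Jun rose by 1.36 and 0.66 on the log2 scale with Sox9 at 1.56, while the adhesion receptor gene Cd44 was at -1.66. Mmp7 (1.46), Fosl1 (0.95) and Ephb2 (-0.87) were called too, but lost their calls in 4 of 17, 8 of 18 and 10 of 18 alternatives. Nkd1 is the remaining member that fell. Most of these genes also answer to other pathways, and the target genes Axin2, Lgr5 and Notum were not listed.

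**Figure D4:**
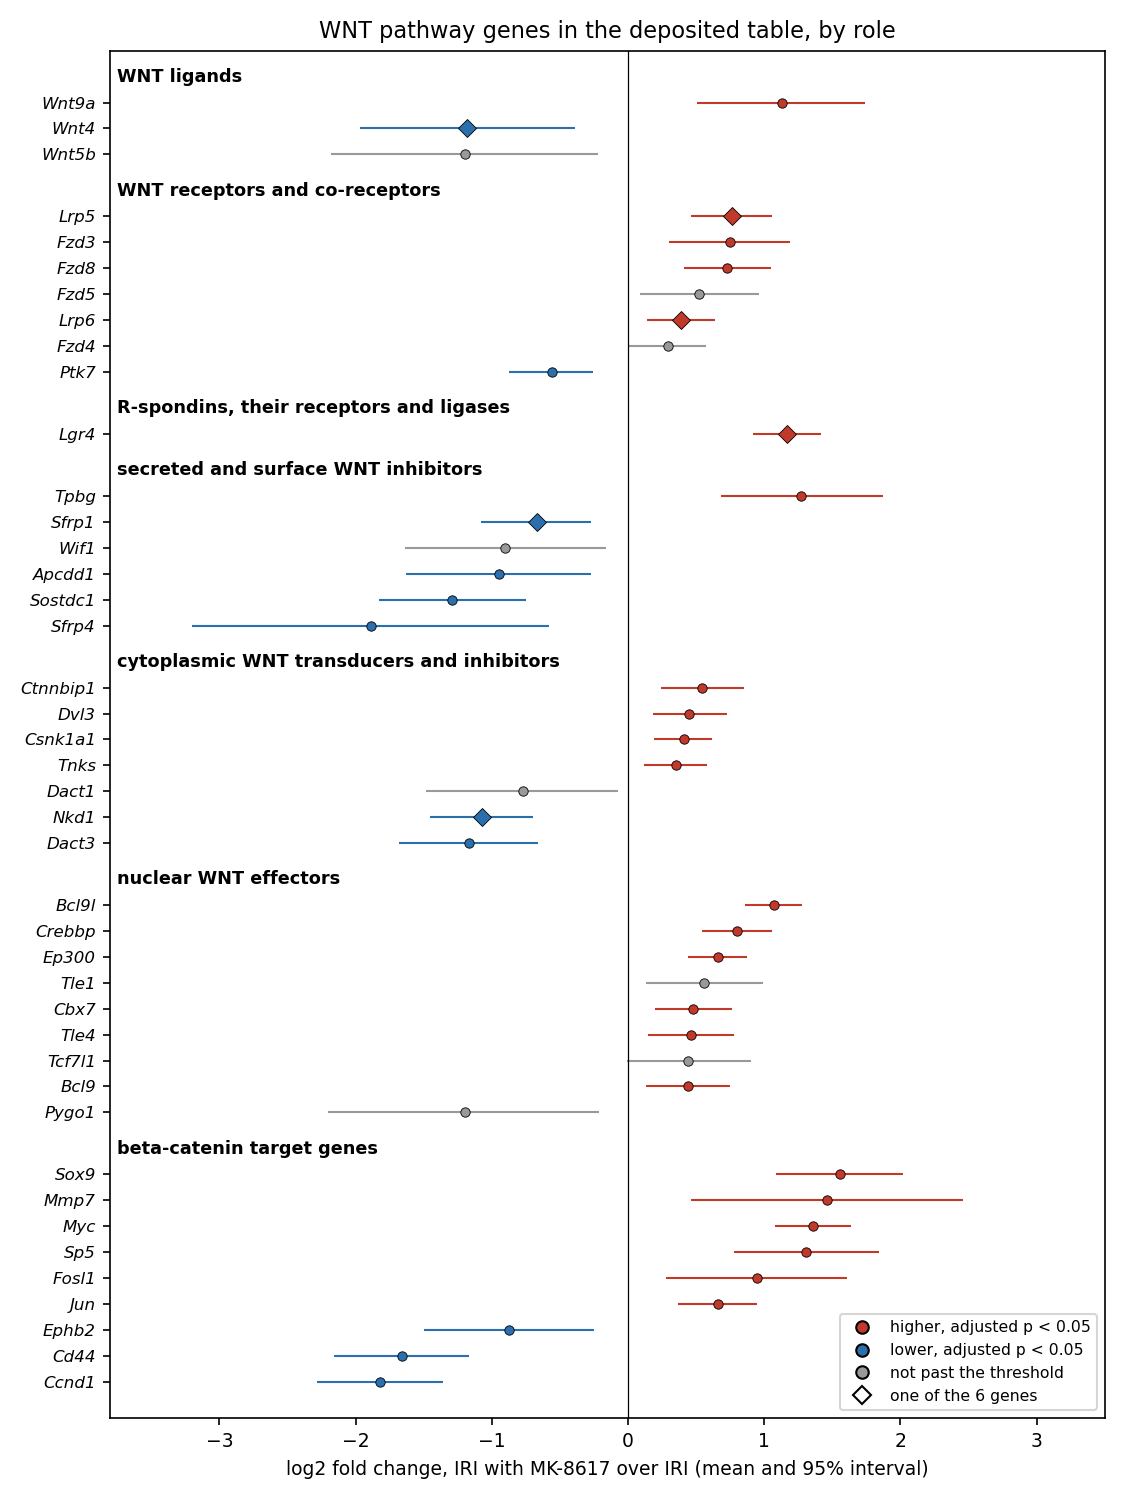
Log2 fold change with 95% interval (x axis), IRI with MK-8617 over IRI, of the 42 tested WNT pathway genes grouped by role, with diamonds for the 6 genes described first and colour for the call (Nkd1 is drawn once, with the cytoplasmic genes). Red points, higher with MK-8617, number 6 of 9 nuclear effectors, 4 of 7 receptors and 4 of 7 cytoplasmic genes. Blue points, lower, number 4 of 6 secreted and surface inhibitors. The β-catenin targets went both ways, 6 higher and 4 lower with Nkd1 counted. Over all tested genes 35.7% were called higher and 38.7% lower. Several of the counts by role were smaller in alternative settings, so nothing is read from them. Differences between roles were not tested.

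Genes of other cell types moved between the groups as well. Of 11 stromal cell markers 8 were listed, 7 lower and 1 higher, with summed levels of 61.4 to 97.9 FPKM with MK-8617 and 256 to 367 FPKM with IRI alone. Of 7 collecting duct principal cell markers 3 were listed and 1 of the 2 tested was lower, with summed levels of 42.0 to 74.5 FPKM with MK-8617 and 82.2 to 104 FPKM with IRI alone, and Avpr2 was at 0 reads in all 3 MK-8617 libraries and at 3 to 5 reads in the IRI libraries. Of 6 intercalated cell markers 4 were listed and 3 were lower, at 31.0 to 41.7 FPKM with MK-8617 and 66.6 to 82.5 FPKM with IRI alone. Macrophage markers (8 of 10 listed, 6 lower) summed to 37.8 to 50.5 FPKM with MK-8617 and 101 to 201 FPKM with IRI alone. Proliferation markers (7 of 7 listed, 6 lower) summed to 37.2 to 39.4 FPKM with MK-8617 and 65.7 to 140 FPKM with IRI alone. The summed levels of these lists were lower with MK-8617, the direction of Wnt4, Nkd1 and Sfrp1. Of all tested genes 38.7% were called lower, so nothing is read from the counts of calls. IRI replicate 2, the highest library for Wnt4, was also the highest for the macrophage markers, at 201 FPKM, and for the proliferation markers, at 140.2 FPKM. The summed stromal and intercalated cell markers were highest in IRI replicate 3 and the summed principal cell markers in IRI replicate 1. Acta2 alone made up 248 FPKM of the stromal sum in IRI replicate 3. Singly, the stromal markers Col1a1, Col1a2, Col3a1 and Gli1 were highest in IRI replicate 2, as Wnt4 was. Acta2, Dcn and Postn were highest in IRI replicate 3 and Cspg4 in IRI replicate 1.

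In the direction of the receptor genes, 5 of 12 proximal tubule markers were listed, and 2 were higher and 0 lower. Over all tested genes 35.7% were called higher and 38.7% lower, so nothing is read from that count or from the counts that follow. Of 5 distal convoluted tubule markers 4 were listed and 3 were higher, with summed levels of 30.5 to 58.3 FPKM with MK-8617 and 22.4 to 27.8 FPKM with IRI alone. Podocyte markers (3 of 6 listed, 3 higher) summed to 23.2 to 26.7 FPKM with MK-8617 and 12.3 to 14.0 FPKM with IRI alone. Thick ascending limb and endothelial markers did not follow that direction as a whole. Of 6 thick ascending limb markers 5 were listed, 3 of them lower and 1 higher, with a median log2 fold change of -0.76. They summed to 631 to 1049 FPKM with MK-8617 and 487 to 819 FPKM with IRI alone. Umod, not past the threshold, made up most of that sum, at mean levels of 864 FPKM with MK-8617 and 637 FPKM with IRI alone. Endothelial markers (2 of 10 listed, 1 higher) summed to 23.1 to 29.9 FPKM with MK-8617 and 19.6 to 24.4 FPKM with IRI alone. The other listed endothelial marker, Emcn, was at -0.33 and not past the threshold. No listed marker of these lists other than Avpr2 was at 0 reads in all libraries of a group, and no lymphocyte or erythroid marker was listed. The part of these cell types in the changes of the 6 WNT genes was not tested.

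**Figure D5:**
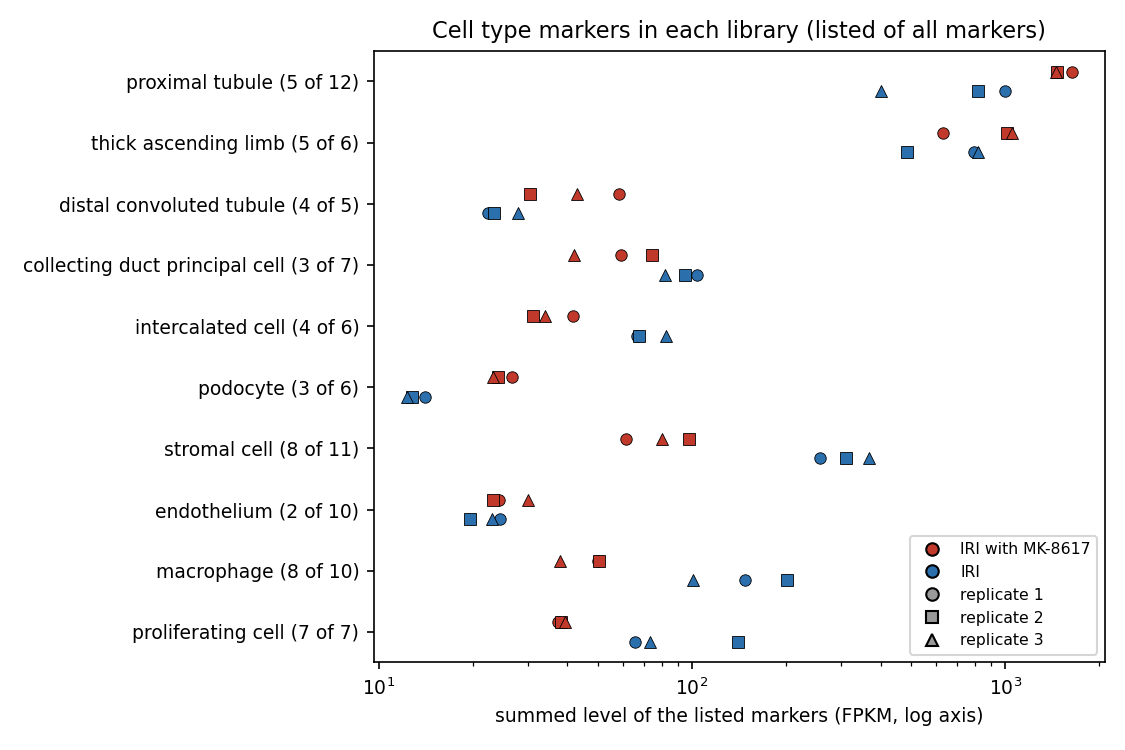
Summed FPKM (log axis) of the listed markers of each cell type in each library, MK-8617 above IRI, with 1 symbol per replicate. Stromal markers lie at 61.4 to 97.9 FPKM in the MK-8617 libraries and 256 to 367 in the IRI libraries, and endothelial and thick ascending limb markers overlap between the groups.

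For each of the 6 genes, the 3 genes with the most similar pattern were sought by Pearson's r of log2(normalised count + 1) over the 6 samples, among 6225 named genes. The samples form 2 groups, so any gene with a tight group difference reaches a high r. In all, 49 genes reached 0.99 with Lgr4, 118 with Nkd1 and 42 with Wnt4, against 22 with Lrp5, 6 with Sfrp1 and 2 with Lrp6. Nearest to Lgr4 were Pus7, Fnip1 and Micu3 (r = 0.999, 0.998 and 0.998), and nearest to Lrp5 were Ppp1r12a, Trim23 and Dennd1b (0.998, 0.998 and 0.995). Lrp6 was nearest to Trpv5, a calcium channel gene of the distal tubule (0.997), then to Nedd1 and Osbpl11 (0.995 and 0.988). Trpv5 had 500.1 ± 144 normalised counts with MK-8617 and 254 ± 27.0 in the IRI group (SD, n = 3 each). Wnt4 was nearest to Atad2, Umps and Igf1 (0.999, 0.998 and 0.998), whose IRI libraries are spread like those of Wnt4, with Igf1, a growth factor gene, at 35.7 ± 2.44 with MK-8617 and 140.4 ± 56.9 with IRI alone. Nkd1 was nearest to Rpl37rt, Havcr1 and Ppa1 (1.00, 0.999 and 0.999). The count of Rpl37rt is uncertain because it is a near copy of another ribosomal protein gene. Havcr1, the tubular injury marker also known as KIM-1, had 14408 ± 968 normalised counts with MK-8617 and 40353 ± 1946 in the IRI group (SD, n = 3 each). Sfrp1 was nearest to Kcnn1, S100a3 and Atpaf2 (0.999, 0.997 and 0.994). Kcnn1 and S100a3 were low, at 11.2 ± 5.12 and 4.88 ± 4.39 normalised counts with MK-8617. With IRI alone they were at 30.7 ± 4.01 and 31.0 ± 8.19 (SD, n = 3 each), so counting error is large for both.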

How the data were processed

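The 6 RNA-seq libraries come from samples labelled mouse kidney, 3 of IRI with MK-8617 and 3 of IRI. The submitters' processing notes name, without their roles, HISAT2 2.0.5, DESeq2 1.20.0, featureCounts 1.5.0-p3, CASAVA 1.8 and fastp. These also name the human build GRCh38, although the identifiers are those of mouse genes. The deposited signal values are the authors' read counts per gene after division by a size factor, 1 for each library. Whole reads were recovered for 100% of values (tolerance 0.001) and equalled the raw count, which the authors deposited for IRI replicate 3. The FPKM values, also deposited, are the authors' counts per exonic length and library total. The authors' log2 fold changes and p-values were deposited too, for 7340 genes, and imply an adjustment over 18811 genes.

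limma 3.58.1 (trend, robust; R 4.3.3) was fitted to log2(normalised count + 1) of the 6961 genes kept by filterByExpr of edgeR 4.0.16, with Benjamini-Hochberg adjustment over 18811 genes. Fold changes on this scale understate the change of low genes. The fit was also run on simulated counts in which few genes changed, unlike this table, so that run is no check of the calls here. The alternatives left out each replicate, blocked by replicate number, changed the pseudocount (0.5, 8) or filter, used FPKM, edgeR, DESeq2 1.42.0 or limma-voom, removed a trend on gene length, or adjusted over the listed genes alone. For ratios, exact permutation tests over the 6 libraries were run. A floor of 3 reads is 0.154 to 0.178 CPM, and covers counting error only. Coordinates are of whole genes in GENCODE M21 (GRCm38), since reads were counted per gene. The genes named are the 6 genes, every tested gene of the WNT lists, and for each of the 6 the 3 genes of most similar pattern, leaving out predicted symbols. The members and lists were chosen with earlier results of these data known.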

Additional observations from a re-analysis of the deposited data

How the results depend on the processing

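Lgr4, Lrp5 and Nkd1 kept their direction and their call in all 18 alternatives, with log2 fold changes of 1.09 to 1.26, 0.63 to 0.85 and -1.11 to -0.99. Lrp6 kept its direction in 18 of 18 and its call in 12, and was not past the threshold on log2(FPKM + 0.1) (0.37) or with the length trend removed (0.23). Leaving out 1 replicate at a time gave 0.33 to 0.49 for Lrp6, -0.79 to -0.48 for Sfrp1 and -1.30 to -0.96 for Wnt4. Wnt4 kept its call in 10 of 17 alternatives and could not be fitted among genes of at least 5 CPM. It missed the threshold with DESeq2 on the tested genes (-1.19), and passed it in the authors' deposited test (-1.28). The WNT list genes that rose numbered 13 to 22 with 1 replicate left out, and those that fell 6 to 10, and 7 at 5 CPM or more. Over all genes, 1488 to 2446 were higher with 1 replicate left out. The Wnt4 to Nkd1 difference was -0.31 to 0.06 with 1 replicate left out, with 0.06 where IRI replicate 2 was left out. The causes were not tested.

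Whether the replicate numbers pair the samples is not known. The deviations of same-numbered libraries from their group means correlated at 0.0206, 0.116 and 0.115, and although each library correlated best with its own number, the labels name no shared animal or day. With the number as a block, Wnt4 stayed at -1.18 (adjusted p = 0.0532), 24 WNT list genes rose and 9 fell, and no other of the 6 genes lost its call.

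The table holds only genes that passed the authors' own p, so a share of called genes is a share of that table. The median of all tested genes was -0.31, and -0.33 to -0.11 over the alternatives, -0.11 with the length trend removed. Depth limits Wnt4, at 12 to 46 reads a library.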
